A study of Mus musculus with 12 samples.

Results

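The HoxB cluster comprises 10 genes, Hoxb1, Hoxb2, Hoxb3, Hoxb4, Hoxb5, Hoxb6, Hoxb7, Hoxb8, Hoxb9 and Hoxb13, and its members were taken as the probe sets annotated to a single one of these symbols. Of the 10 members, 9 were measured, by 11 of the 45101 probe sets on the array, and they stand among 18193 genes in all. Hoxb3 and Hoxb4 each had 2 probe sets, which were averaged. Hoxb8 had no probe set of its own, because the only probe set that carries its symbol is shared with Hoxb7, and no value is given for it. RNA of mouse dermis was hybridised to 12 Affymetrix one-colour arrays in 4 groups of 3, namely P5 tail, P5 back, P1 tail and P1 back, where P5 and P1 mean 5 days and 1 day after birth. All mice were C57Bl6/CBA F1, and the labels name no treatment or engineered allele. The dermis was parted from the epidermis with forceps and digested to single cells, and the protocol, which is worded for P1 and attached to all 12 arrays, names EDTA for the tail and a dispase-trypsin mixture for the back. Site and solution therefore cannot be told apart at P1, and whether P5 skin was treated in the same way is not stated. The protocol speaks of triplicate mice, and each array was taken as 1 mouse, which the labels do not state; otherwise the p-values measure only the spread between arrays. In RNA from whole dermis, fewer cells of a type and less RNA per cell cannot be told apart.

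Hox genes encode homeodomain transcription factors that specify position along the head-to-tail axis of the embryo. Within a cluster they are switched on in the order in which they lie, so that genes at the 3′ end, such as Hoxb1, act at the level of the hindbrain and genes at the 5′ end, such as Hoxb13, act towards the tail. Fibroblasts of adult skin are known to retain a site-specific Hox pattern. The cluster also holds a pair of microRNA genes and several non-coding RNAs. In the RefSeq order, Hoxb13 is followed by Mir196a-1, Hoxb9, Hoxb8, Hoxb7, the antisense transcript Hoxb5os, Hoxb6, Hoxb5, Hoxb3, Mir10a, Hoxb4, Hoxb2 and Hoxb1. The mature forms of both microRNAs are shown because they belong to the same locus, at chr11:96265187-96265208 for miR-196a and chr11:96317186-96317208 for miR-10a on the plus strand (RefSeq, GRCm38.p6), with the seed, bases 2 to 8, in capitals.
mmu-miR-196a-5p: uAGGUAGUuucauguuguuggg
mmu-miR-10a-5p: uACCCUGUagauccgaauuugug
Mir196a-1 lies between Hoxb13 and Hoxb9, and miR-196a is known in the mouse embryo for cleaving the Hoxb8 transcript. Mir10a lies beside Hoxb4. Each seed is shared by 2 mature mouse miRNAs, that of miR-196a-5p with miR-196b-5p and that of miR-10a-5p with miR-10b-5p, and the levels of these microRNAs were not analysed here.

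The deposited values are log2 signals in which every probe set had been set to a median of 0 over the 12 arrays. A value therefore says how far an array lies above or below the middle of that gene, differences between arrays are measured, and no gene's level can be compared with another's. For the same reason the labelled tissue cannot be checked by the level of fibroblast genes. The median of a column lay between -0.02 and 0.01. The interquartile range over all probe sets was 0.558 in P5 tail replicate 2, against 0.185 to 0.313 in the other 11 arrays.

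The labels of site and some genes of known position or tissue ran in opposite directions. The study describes the dermal fat layer as a feature of back skin, and its own comparison at P1 placed fat metabolism genes on the side of the back. In the deposited values the direction was the opposite: all 8 measured adipocyte markers were called higher in the P1 arrays labelled tail than in those labelled back, with a median log2 difference of 2.68. Hoxb13, which is known for its expression in the tail of the mouse embryo, was likewise lower in the arrays labelled tail at both ages. The arrays were kept in the groups that their labels give. If both site labels were exchanged, every difference between tail and back below would keep its size and take the opposite sign.

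At P5, 4 of the 9 measured HoxB genes differed between tail and back. Hoxb5 and Hoxb6 were higher in the arrays labelled tail, by 1.54-fold and 1.93-fold, and Hoxb9 and Hoxb13 were lower, by 1.73-fold and 3.60-fold. The same 4 genes passed the test at P1 in the same directions, with differences of 1.59-fold and 1.43-fold for Hoxb5 and Hoxb6 and of 2.05-fold and 4.12-fold for Hoxb9 and Hoxb13. The 5 genes that passed at neither age were Hoxb1, Hoxb2, Hoxb3, Hoxb4 and Hoxb7. The test was limma on all 12 arrays with Benjamini-Hochberg adjustment over the 18193 genes, and a gene passed at an adjusted p under 0.05. The share of members that passed was 44.4% at each age, against a background of 6.91% of all genes at P5 (4.3% higher and 2.61% lower) and 3.97% at P1 (2.06% higher and 1.91% lower).

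**Figure D1:**
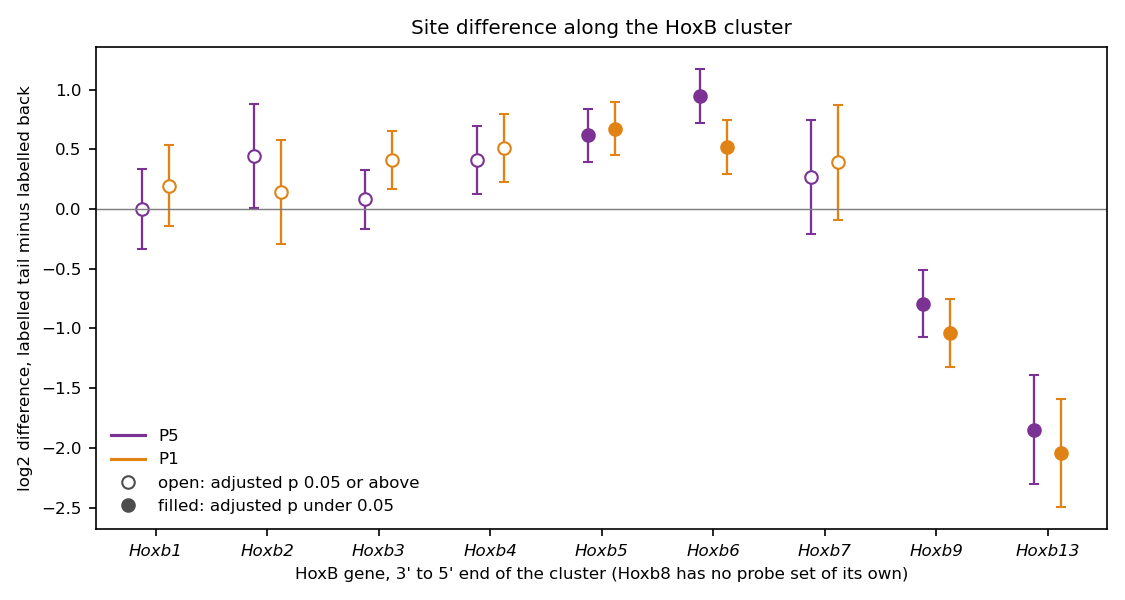
Log2 difference between arrays labelled tail and labelled back (y axis) for the 9 measured HoxB genes in cluster order (x axis), at P5 (purple, left of each pair) and P1 (orange). Points are limma estimates, bars are their 95% confidence intervals, and filled points have an adjusted p under 0.05. From Hoxb2 to Hoxb7 all 12 points lie above 0, and those of Hoxb9 and Hoxb13 lie below it, at -0.79 and -1.04 for Hoxb9 and at -1.85 and -2.04 for Hoxb13.

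From Hoxb2 to Hoxb13 the sign of the estimated difference followed the position in the cluster. The 6 measured genes from Hoxb2 to Hoxb7 had positive estimates at both ages, whether or not they passed, and the 2 measured genes 5′ of Hoxb8 had negative ones. The sign of Hoxb7 at P5 rested on 1 array, since its difference was -0.06 without P5 tail replicate 4. That of Hoxb3 at P5 differed between its 2 probe sets, at -0.03 and 0.19. Over the 9 genes the median difference was 0.27 at P5 and 0.39 at P1, beside -0.02 and -0.04 over all genes. In 6 of 9 members the 3 values labelled tail did not overlap the 3 labelled back at P5, which was so for 20.6% of all genes. At P1 this held for 8 of 9 members, against 30.2% of all genes, and Hoxb1 was the exception. Of the 9 genes, 8 kept their sign between ages, and the other, Hoxb1, had a P5 difference of 0.00. Without P5 tail replicate 4, Hoxb7 did not keep its sign.

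Hoxb13, the most 5′ gene of the cluster, restrains the growth of the caudal spinal cord and tail vertebrae in the mouse. Its centred values were -0.80, -0.97 and -0.73 in P5 tail, against 1.28, 0.77 and 1.00 in P5 back. They were -1.14, -0.86 and -0.98 in P1 tail, against 1.64, 0.78 and 0.73 in P1 back. All 6 arrays labelled tail lay below all 6 labelled back, with the nearest pair at -0.73 and 0.73. The log2 difference was -1.85 ± 0.21 (SE, n = 3 a group) at P5, with a limma adjusted p of 0.000196. At P1 it was -2.04 ± 0.21, with an adjusted p of 0.000117. P1 back replicate 1 was the highest array, and the SD of that group, 0.51, was the largest of the 4.

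Hoxb9, which acts with its paralogues in the patterning of ribs and thoracic vertebrae, showed the same split with a smaller difference. Its values were -0.27, -0.59 and -0.45 in P5 tail, against 0.33, 0.48 and 0.27 in P5 back. In P1 tail they were -0.41, -0.71 and -0.80, against 0.57, 0.30 and 0.32 in P1 back. Again no array labelled tail reached the lowest array labelled back. The difference was -0.79 ± 0.13 at P5 and -1.04 ± 0.13 at P1 (SE), with limma adjusted p of 0.00269 and 0.000624. Without P1 back replicates 1 and 6, which were the arrays highest in cartilage markers, the P1 difference of Hoxb9 was -0.94 with an adjusted p of 0.068, from a fit in which the remaining P1 back array was assumed to vary like the other groups.

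Hoxb5, which takes part in positioning the forelimb and in the development of the enteric nervous system, ran the other way. Its values were 0.52, 0.52 and 0.50 in P5 tail, against -0.14, -0.09 and -0.09 in P5 back. In P1 tail they were 0.28, 0.09 and 0.33, against -0.31, -0.60 and -0.41 in P1 back. Replicates lay closer together at P5, with an SD of 0.01 in tail and 0.03 in back, than at P1, with an SD of 0.13 in tail and 0.14 in back. The difference was 0.62 ± 0.10 at P5 and 0.67 ± 0.10 at P1 (SE), with limma adjusted p of 0.00273 and 0.00205.

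Hoxb6, a gene of the posterior lateral plate mesoderm from which the limb and flank connective tissue form, had values of 0.63, 0.70 and 0.57 in P5 tail, against -0.32, -0.30 and -0.33 in P5 back. In P1 tail the values were 0.28, 0.46 and 0.14, against -0.20, -0.34 and -0.14 in P1 back. The groups were apart at both ages and were farther apart at P5. The difference was 0.95 ± 0.10 at P5 and 0.52 ± 0.10 at P1 (SE), with limma adjusted p of 0.000159 and 0.0128. The P1 call was lost without P1 back replicate 5 (0.46, adjusted p = 0.076) and with the replicate number as a block across both ages (0.54, adjusted p = 0.11). It was also lost without P1 back replicates 1 and 6 together, although the estimate there was 0.63 (adjusted p = 0.15).

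Hoxb5os is an antisense non-coding RNA whose RefSeq gene overlaps Hoxb6 and Hoxb5, and it is not a member of the set. It was measured by 1 probe set, with values of 1.22, 0.52 and 0.37 in P5 tail, against 0.06, -0.41 and -0.21 in P5 back. In P1 tail they were -0.06, 0.11 and 0.24, against -0.80, -1.19 and -1.08 in P1 back. As for the overlapping Hoxb5 and Hoxb6, every array labelled tail lay above every array labelled back of the same age. Groups without overlap, in either direction, were seen in 20.6% of all genes at P5 and 30.2% at P1. The difference of Hoxb5os was 0.89 at P5 and 1.12 at P1, with limma p adjusted over all 45037 probe sets of 0.0245 and 0.00904.

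**Figure D2:**
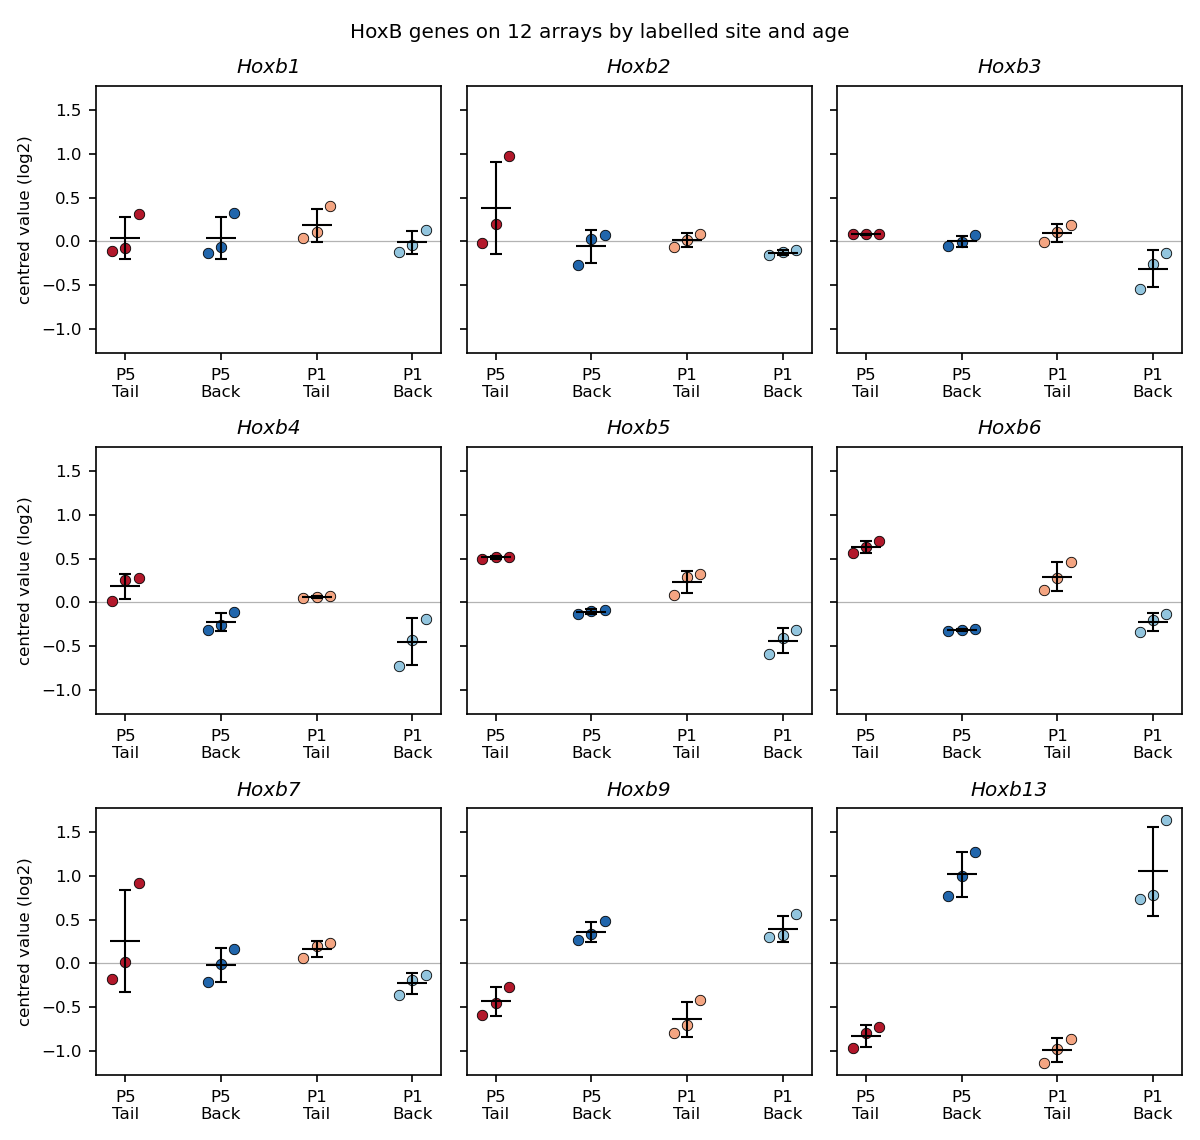
Centred log2 value (y axis) of each measured HoxB gene in each of the 12 arrays, in the groups P5 tail, P5 back, P1 tail and P1 back (x axis). Points are arrays and bars are the mean and SD of 3 arrays. Hoxb5 and Hoxb6 lie higher and Hoxb9 and Hoxb13 lower under the tail label at both ages without overlap, while the groups of Hoxb1 overlap.

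Hoxb4, known for expanding haematopoietic stem cells when it is supplied in excess, came closest to the threshold among the remaining genes. Its values were 0.25, 0.28 and 0.02 in P5 tail, against -0.31, -0.11 and -0.26 in P5 back. In P1 tail they were 0.07, 0.07 and 0.05, against -0.19, -0.73 and -0.43 in P1 back. The groups did not overlap at either age. The difference was 0.41 (95% interval 0.12 to 0.69) at P5 and 0.51 (0.23 to 0.80) at P1, with limma adjusted p of 0.091 and 0.0505. In RefSeq the gene lies within the span of Hoxb3. Its 2 probe sets gave 0.34 and 0.48 at P5 and 0.42 and 0.60 at P1. The P5 difference passed without P5 tail replicate 4 (0.49, adjusted p = 0.043), and was smallest without P5 tail replicate 3 (0.36, adjusted p = 0.16). The P1 difference passed without P1 back replicate 1 (0.64, adjusted p = 0.022) and was smallest without P1 back replicate 5 (0.37, adjusted p = 0.23).

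Hoxb3, a gene of the hindbrain and of the pharyngeal region, had values of 0.09, 0.08 and 0.08 in P5 tail, against -0.06, -0.00 and 0.07 in P5 back. In P1 tail it had 0.19, -0.01 and 0.10, against -0.13, -0.26 and -0.55 in P1 back. The groups did not overlap at either age, but at P5 the lowest value of tail, 0.08, lay next to the highest of back, 0.07. The difference was 0.08 at P5 and 0.41 at P1, with limma adjusted p of 0.75 and 0.068. The 2 probe sets of Hoxb3 disagreed in sign at P5 (-0.03 and 0.19) and not at P1 (0.47 and 0.35).

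Hoxb7, whose regulatory sequence is widely used to mark the ureteric bud of the kidney, and Hoxb2, which acts in the hindbrain, each had 1 P5 tail array far from the rest of its group. Hoxb7 had values of 0.01, -0.17 and 0.91 in P5 tail, against 0.17, -0.01 and -0.21 in P5 back. In P1 it had 0.06, 0.20 and 0.23 in tail, against -0.36, -0.13 and -0.19 in back. The P5 groups of Hoxb7 overlapped and P5 tail replicate 4 stood far above the rest. The difference of Hoxb7 was 0.27 (95% interval -0.21 to 0.75) at P5, with the opposite sign without that array, and 0.39 (-0.09 to 0.87) at P1. Hoxb2 had values of 0.98, 0.20 and -0.02 in P5 tail, against 0.07, 0.03 and -0.27 in P5 back. In P1 it had 0.09, 0.02 and -0.07 in tail, against -0.13, -0.10 and -0.16 in back. The high P5 value of Hoxb2 came from P5 tail replicate 2, the array with the widest spread over all probe sets. The difference of Hoxb2 was 0.44 (0.01 to 0.87) at P5 and 0.14 (-0.29 to 0.58) at P1, with limma adjusted p of 0.24 and 0.81. Its P1 interval rests on the same shared spread. With only the P1 arrays, the SE was 0.07, against 0.20, and the adjusted p was 0.29. The P5 difference of Hoxb2 depended on the array left out, at 0.15 without P5 tail replicate 2 (adjusted p = 0.57) and 0.64 without P5 tail replicate 4 (adjusted p = 0.0488).

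Hoxb1, which gives a segment of the hindbrain its identity, did not separate the sites. Its values were -0.08, -0.11 and 0.31 in P5 tail, against -0.06, -0.13 and 0.32 in P5 back. In P1 tail they were 0.11, 0.40 and 0.04, against -0.13, -0.04 and 0.13 in P1 back. The difference was 0.00 at P5, with a 95% interval of -0.34 to 0.34, and 0.19 at P1, with an interval of -0.14 to 0.53. These intervals leave room for a difference of the size seen in Hoxb3 or Hoxb7.

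Promoter sequence was matched in RefSeq (GRCm38.p6) for 3 of the 10 members, and those of Hoxb4 and Hoxb1 are shown because the arrays of tail and back did not overlap for Hoxb4 at either age and overlapped for Hoxb1 at both. They run from 250 bases before to 50 after the transcript start on the plus strand, at chr11:96318017-96318316 for Hoxb4 and chr11:96365508-96365807 for Hoxb1, with capitals at the motif matches.
Hoxb4: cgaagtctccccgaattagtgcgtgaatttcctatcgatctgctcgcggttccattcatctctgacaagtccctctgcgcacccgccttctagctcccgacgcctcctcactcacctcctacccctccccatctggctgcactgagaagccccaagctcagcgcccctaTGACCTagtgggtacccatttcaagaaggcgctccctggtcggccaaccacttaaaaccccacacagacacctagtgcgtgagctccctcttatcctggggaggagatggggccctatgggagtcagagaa
Hoxb1: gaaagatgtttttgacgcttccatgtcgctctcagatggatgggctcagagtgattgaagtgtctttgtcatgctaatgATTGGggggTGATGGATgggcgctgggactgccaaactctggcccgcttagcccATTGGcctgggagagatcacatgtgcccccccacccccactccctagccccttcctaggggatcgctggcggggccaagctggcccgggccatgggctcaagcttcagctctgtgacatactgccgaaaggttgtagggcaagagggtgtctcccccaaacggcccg
All motifs were searched on both strands. In Hoxb4 the motif AGGTCA, a part of a retinoic acid receptor site, matched once, on the opposite strand, 81 bases before the start. It is present in 16.3% of 32851 mouse promoters of that length. In Hoxb1 the Pbx-Hox motif TGATNNAT matched once, 162 bases before the start (8.8% of promoters), and CCAAT matched on the opposite strand 171 and 117 bases before it (37.4%). The Cdx motif TTTATG (11.9%), TATAAA (13.6%) and the Sp1 motif GGGCGG (35.7%) had no match in either window. These are matches of letters, and binding was not measured.

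Markers of other cell types differed between the same arrays. At P5, 5 of 10 epidermal markers were higher in tail and 0 lower, and their mean centred value ranged from 0.101 to 0.455 in tail, against -0.959 to -0.506 in back. At P1, 0 were higher and 1 lower, with a range of -0.99 to 0.29 in tail, against 0.172 to 0.455 in back. The adipocyte markers ranged from 0.012 to 0.383 in P5 tail, against -0.46 to -0.064 in P5 back, with 2 of 8 called higher. They ranged from 1.148 to 1.754 in P1 tail, against -1.255 to -1.236 in P1 back. Of 13 cartilage markers, 1 was higher at P5 and 4 were lower at P1, where tail ranged from -0.228 to -0.176, against 0.051 to 2.094 in back. All 6 melanocyte markers were higher in P1 tail and none was called at P5. Of 10 fibroblast markers, 3 were higher and 1 lower at P5, and 2 were higher at P1. No muscle, endothelial or immune marker was called between the sites, and in Schwann cell and neuron markers 1 gene passed at each age. The median difference of the epidermal markers was 0.87 at P5 and -0.55 at P1, and that of the adipocyte markers was 0.55 and 2.68. The part of these cell types in the HoxB differences was not tested.

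Age was compared within each site. None of the 9 HoxB genes differed between P5 tail and P1 tail by limma, where 5.3% of all genes did, and none differed between P5 back and P1 back, where 4.25% did. Without the adjustment, 2 of 9 members had a p under 0.05 in tail and 2 of 9 in back. The median difference over the members was 0.16 in tail and 0.07 in back, beside 0.04 and 0.01 over all genes.

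Hoxb5 and Hoxb6 had the smallest p in tail. Hoxb6 was 0.34 apart (95% interval 0.11 to 0.56, adjusted p = 0.086), and Hoxb5 was 0.28 apart (0.06 to 0.50, adjusted p = 0.14), both with P5 above P1. In these 2 genes the P5 and P1 arrays did not overlap, which was so for 19.4% of all genes. Without P1 tail replicate 5, the tail difference of Hoxb6 was 0.42 and passed, with an adjusted p of 0.0477. In back, Hoxb5 was 0.33 apart (0.11 to 0.56, adjusted p = 0.10) and Hoxb3 was 0.32 apart (0.07 to 0.56, adjusted p = 0.18), also with P5 above P1 and without overlap, which was so for 28% of all genes. The members that were lower in tail had small age differences, with intervals on both sides of 0. For Hoxb13 the age difference was 0.16 (-0.29 to 0.61) in tail and -0.04 (-0.49 to 0.42) in back. For Hoxb9 it was 0.21 (-0.08 to 0.49) in tail and -0.04 (-0.32 to 0.25) in back.

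**Figure D3:**
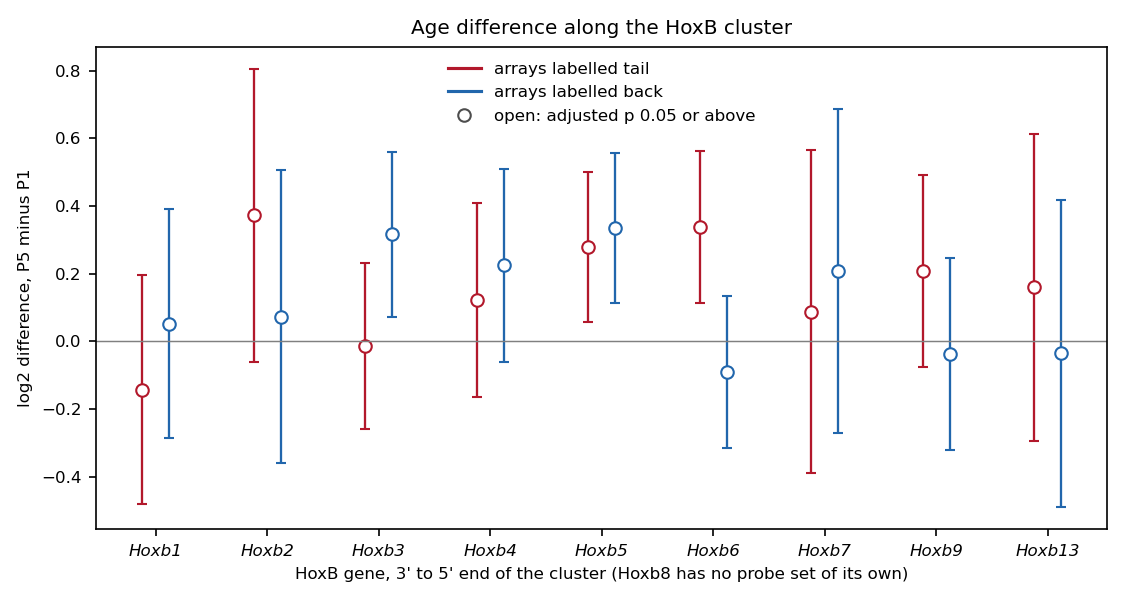
Log2 difference between P5 and P1 (y axis) for the 9 measured HoxB genes in cluster order (x axis), in arrays labelled tail (left of each pair) and labelled back. Points are limma estimates and bars their 95% confidence intervals. All points are open because no member had an adjusted p under 0.05, and Hoxb5 lies above 0 in both sites, at 0.28 and 0.33.

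Whether the site difference itself changed between ages was tested as the P5 difference minus the P1 difference. No member passed, against 2.87% of all genes, and 1 of 9 had an unadjusted p under 0.05. This was Hoxb6, whose site difference was larger at P5 by 0.43 ± 0.15 (SE, unadjusted p = 0.0125, adjusted p = 0.17). For Hoxb13 the change was 0.20 with a 95% interval of -0.45 to 0.84, and for Hoxb9 it was 0.24 with an interval of -0.16 to 0.64. Both intervals include 0, and whether changes of those sizes could be detected with 3 arrays a group was not tested.

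The genes of the other Hox clusters were grouped by paralogue group, the number that genes of equal position share. In groups 1 to 4, 6 of 8 genes were measured, of which 3 were higher in tail and 0 lower at P5, and 1 was higher and 0 lower at P1, with medians of 0.56 and 0.32. Hoxa2, a hindbrain and branchial arch gene, was 1.19 higher at P5 (adjusted p = 0.000236), and Hoxc4 was 0.65 higher at P5 and 0.79 higher at P1. In groups 5 to 9, 9 of 10 genes were measured, and 3 were higher and 2 lower at each age, with medians of 0.24 and 0.13. In groups 10 to 13, 9 of 11 genes were measured, and 0 were higher and 6 lower at each age, with medians of -1.19 and -1.36.

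**Figure D4:**
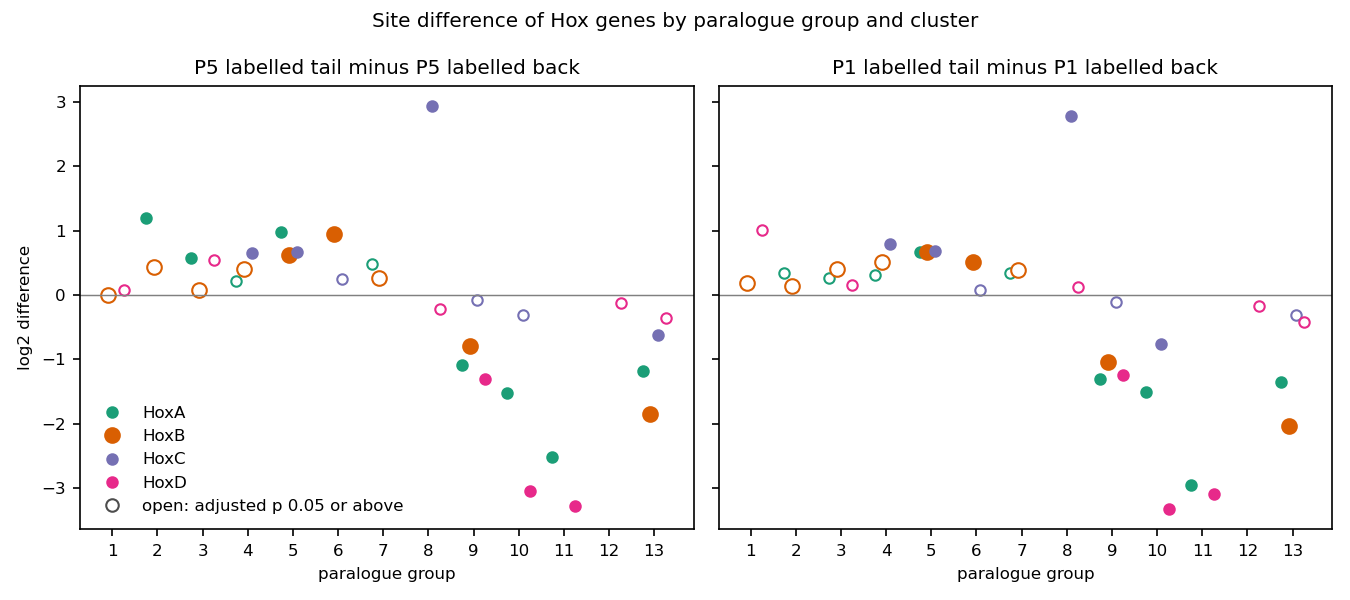
Log2 difference between arrays labelled tail and labelled back (y axis) of every measured Hox gene by paralogue group (x axis), at P5 and at P1. Points are limma estimates, HoxB genes are drawn apart from those of the other clusters, and filled points have an adjusted p under 0.05. All measured genes of groups 10 to 13 lie below 0, and the lowest point at P5 is Hoxd11 at -3.28.

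Paralogues of Hoxb5, Hoxb9 and Hoxb13, among the HoxB genes that passed, were set beside them. They were named for that reason after their values were known. Hoxb6 passed too, but its paralogues are not given here. Hoxa5 and Hoxc5, the paralogues of Hoxb5, were 0.98 and 0.67 higher in tail at P5 and 0.67 and 0.68 higher at P1. Of the group 9 genes, Hoxa9 was lower, at -1.09 at P5 and -1.30 at P1 and Hoxd9 was lower, at -1.31 and -1.24, on the side of Hoxb9. Hoxc9 was not called, at -0.07 and -0.11. Hoxa13, a gene of the distal limb and the genital tubercle, was lower, at -1.19 at P5 and -1.36 at P1. Hoxc13, which is needed for the hair shaft keratins, was lower, at -0.62 at P5 (adjusted p = 0.0301) and had a P1 difference of -0.31 (adjusted p = 0.39). Hoxd13 was not called, at -0.36 and -0.42. The largest differences of all Hox genes measured were outside the HoxB cluster, in Hoxd11 (-3.28 at P5, -3.09 at P1), Hoxd10 (-3.05 and -3.32), Hoxa11 (-2.52 and -2.95) and Hoxc8 (2.93 and 2.78).

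Hox proteins bind DNA with cofactors of the TALE homeodomain family, of which 8 of 9 genes were measured. Pbx3 was 0.77 higher in tail at P5 (limma adjusted p = 0.0197), and Pknox2 was lower at P1 (-0.73, adjusted p = 0.00532). No other TALE gene was called between sites. Of 25 genes that act upstream of Hox expression, mostly of the retinoic acid pathway, 22 were measured, and 3 were higher and 1 lower at P5, and 1 higher and 2 lower at P1. Aldh1a1, which makes retinoic acid, was higher in tail at both ages, by 0.91 and 1.77. Crabp1, which binds retinoic acid in the cytoplasm, was lower at both, with differences of -1.03 and -1.87. Egr2, which activates Hoxb2 in the hindbrain of the mouse, was 1.73 higher at P5 (adjusted p = 0.000238) and 0.12 apart at P1. Of 25 Polycomb and trithorax genes, whose products keep Hox genes silent or active, 24 were measured and 0 were called by limma at either age, with 4 at an unadjusted p under 0.05 at P5 and 2 at P1.

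Of the 10 nearest measured genes on each side of the cluster, 20 in all, 0 were higher and 1 was lower at P5, and 0 were higher and 1 was lower at P1, which is 5% at each age, near the 6.91% and 3.97% of all genes that were called. The genes were Gngt2 at P5 (-0.60, limma adjusted p = 0.0234) and Igf2bp1 at P1 (-0.66, adjusted p = 0.00891). The neighbour beyond Hoxb13, Ttll6, had differences of -0.04 at P5 and -0.27 at P1, and the neighbour beyond Hoxb1, Skap1, had 0.12 and -0.12. The median over the 20 was -0.01 at P5 and -0.15 at P1. The neighbours and the HoxB genes were not tested against each other as sets.

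**Figure D5:**
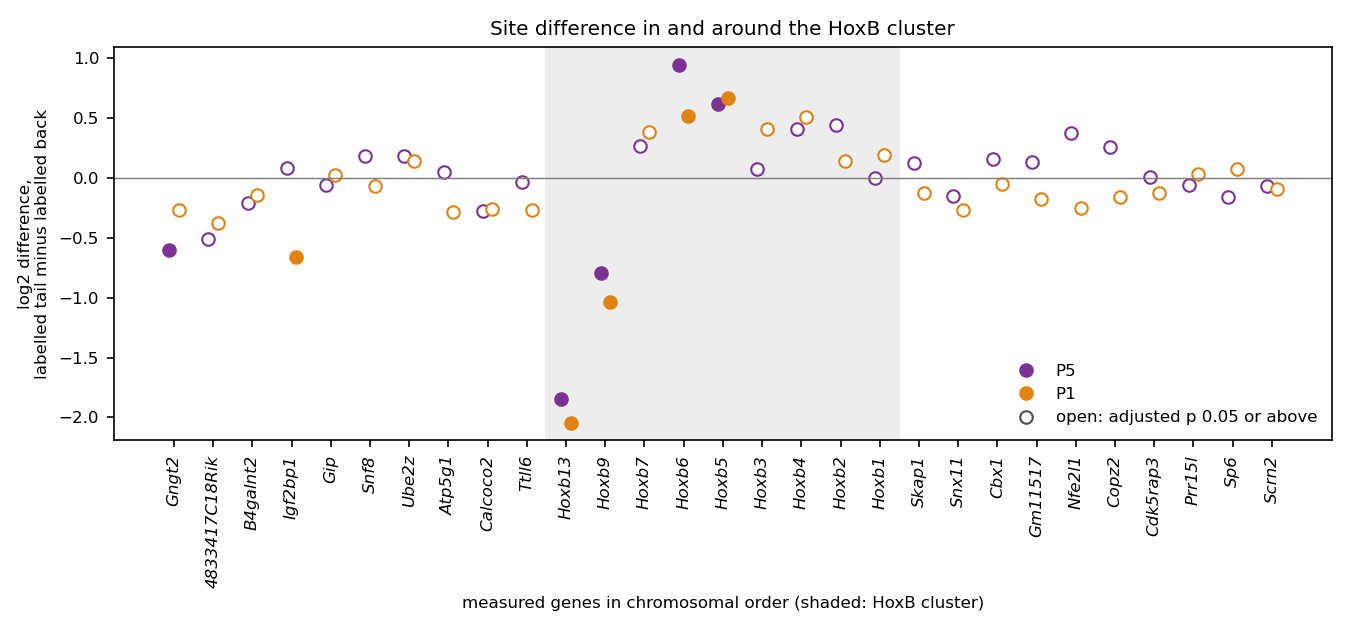
Log2 difference between arrays labelled tail and labelled back (y axis) of the HoxB genes and the 10 nearest measured genes on each side, in chromosome order (x axis, rank not distance), at P5 and at P1. Points are limma estimates and filled points have an adjusted p under 0.05. Hoxb13 stands at -1.85 and -2.04 while its neighbour Ttll6 stands at -0.04 and -0.27.

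The genes whose values followed the called members most closely over the 12 arrays were taken by Pearson's r, as a description. The arrays fall into 4 groups, so that a high r mostly says that a gene had the same group means. Hoxb5 was followed by Fgfr4 (0.964), Cdh6 (0.956) and Entpd1 (0.946). Hoxb6 was followed by Bbox1 (0.964), Skap2 (0.962) and Acad11 (0.955). For Hoxb9 the nearest genes were Hoxd10 (0.974), Foxp2 (0.962) and Tnn (0.961). For Hoxb13 they were Pax9 (0.969), AI593442 (0.968) and Col24a1 (0.964). Within the cluster, r was 0.946 between Hoxb9 and Hoxb13 and 0.864 between Hoxb5 and Hoxb6. Across these pairs it was negative, at -0.875 between Hoxb6 and Hoxb13 and -0.784 between Hoxb5 and Hoxb9.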

How the data were processed

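Dermal RNA of newborn mice was measured on 12 Affymetrix MG430.2A arrays. Per the labels and methods, the authors normalised the scans by RMA in GeneSpring and deposited log2 values. Base 2 is taken from RMA, since no source used here gives it. In the deposited log2 table every probe set had a median of 0 over the arrays (within 1e-06), so the 20% of lowest genes that the methods leave out could not be found, and none was left out here. After 64 control probe sets were removed, 34945 of the 45037 others had 1 gene symbol, 932 had several and 9160 had none. Symbols came from the platform annotation, and 34741 probe sets matched RefSeq (GRCm38.p6) by gene identifier. Probe sets of a gene were averaged, and 9010 of 18193 genes had more than 1.

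Groups, all with 3 arrays, came from the labels. limma 3.58.1 (R 4.3.3; lmFit, contrasts.fit, eBayes) was fitted to all 12 arrays with 4 group means, and 5 contrasts were adjusted by Benjamini-Hochberg over all genes. The script was tested on simulated data. Tables were handled in Python 3.11.15 with pandas 2.3.3 and drawn with matplotlib 3.10.9. The number of arrays limits the precision. Alternatives were median centring, robust variances, array weights, only the groups compared, a replicate block, no probe sets whose suffix marks several transcripts or shared sequence, single probe sets, a 2-fold minimum, and arrays left out. The members, gene lists and alternatives were chosen with earlier results of these data known. All members were named, at most 4 called genes with the largest differences from each list, and the 3 genes most correlated with each called member. Outside that rule, paralogues of Hoxb5, Hoxb9 and Hoxb13 were named after their values were known, whether called or not. The nearest measured neighbour on each side of the cluster was also named. The marker lists held fibroblast, epidermis, adipocyte, cartilage, muscle, endothelium, Schwann cell, neuron, immune and melanocyte genes.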

Additional observations from a re-analysis of the deposited data

How the results depend on the processing

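Across 9 other settings and 12 arrays left out in turn, no called HoxB difference changed sign. Some settings, such as robust variances and only the groups compared, leave an estimate as it is, so its sign could not change there. The values counted next include those settings. Of 625 recomputed values of single members, 580 kept their sign and their side of the threshold, 10 passed only under the alternative, 4 passed only in the main analysis, and 31 changed sign without passing in either, none larger than 0.26. Hoxb13 stayed between -1.97 and -1.63 at P5 and between -2.20 and -1.75 at P1, with adjusted p up to 0.0069 and 0.0048. With limma array weights, 7 members were called between P1 tail and P1 back (5 higher, 2 lower) and 2, Hoxb3 and Hoxb5, between P5 back and P1 back, beside calls over all genes of 3650 against 722 and 2136 against 773. Without P1 back replicates 1 and 6 together, 2 members were called at P1, and 121 genes in all; the cause was not tested, but that group then held 1 array. With a minimum of 2-fold, 1 member was called at P5 (Hoxb13) and 2 at P1 (Hoxb9 and Hoxb13), beside 384 and 271 genes in all. Leaving out 1 array at a time gave 4 to 6 members at P5 and 3 to 5 at P1, beside 737 to 2136 and 385 to 789 genes in all. The 6 came without P5 tail replicate 4, where 2136 genes were called. Between P5 tail and P1 tail it gave 0 to 1, the 1 without P1 tail replicate 5, where 932 genes were called. It gave 0 to 0 between P5 back and P1 back and for the change of the site difference.

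Replicate numbers were shared by only 2 arrays of each site at each age. Deviations of same-numbered arrays correlated at 0.173 and -0.021 at P5 and at 0.264 and -0.014 at P1. Pairs of tail and back arrays with different numbers ranged from -0.133 to 0.093 at P5 and from -0.336 to 0.384 at P1. With 2 same-numbered pairs an age, these values cannot show whether such arrays share more than a number. The replicate number as a block joined arrays of equal number across sites and ages, a link that the labels do not state. With this block, 4 members were called at P5 and 3 at P1, where Hoxb6 had an adjusted p of 0.11. Over all genes 1008 and 575 were called. In both age comparisons and the interaction 0 members were called. Without probe sets whose suffix marks several transcripts of a gene or shared sequence, which removes Hoxb6, 3 members were called at each age. Over all genes left, 1044 were called at P5 and 580 at P1. The Hoxb4 difference at P1 passed with median centring (adjusted p = 0.0495) and with array weights (0.00426). Signal over background was not analysed, because the values are centred.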

Other observations

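Hoxb5os, the antisense transcript over Hoxb6 and Hoxb5, had larger estimated age differences than any HoxB member. It was 0.84 higher in P5 back than in P1 back and 0.61 higher in P5 tail than in P1 tail, with limma p adjusted over all probe sets of 0.0532 and 0.139. Neither passed. The P5 and P1 arrays did not overlap in either site, which was so for 28% of all genes in back and 19.4% in tail.

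Among the flanking genes, Igf2bp1, which encodes an RNA-binding protein of fetal tissues, was lower in P5 back than in P1 back (-0.98, adjusted p = 0.000831). Nfe2l1, a transcription factor gene on the other side of the cluster, was 0.48 higher in P5 tail than in P1 tail (adjusted p = 0.0462). Pknox2, a Hox cofactor gene, was 0.57 higher in P5 tail than in P1 tail (adjusted p = 0.0228).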
